A study of Mus musculus with 6 samples.

Results

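The genes described are 9 enzyme genes of haem metabolism, Alas1, Alas2, Alad, Uros, Urod, Cpox, Ppox, Fech and Hmox1. They were chosen by name, with earlier results of these data known. All probe sets that the platform annotation assigns to one of them were taken. This gave 20 probe sets of the 45037 on the array that are not controls, and 9 of the 18193 genes with a symbol of their own. RNA came from bone marrow cells of 2 mouse strains, B.D(Chr5), whose labelled genetic background is B.D, and C57B/L6. All mice were adult females of 6 to 16 weeks, and the cells had been depleted of mature blood lineages by sorting, which enriches for haematopoietic stem and progenitor cells. Each strain had 3 arrays labelled as biological replicates, 1 sample per array, with no treatment in either strain. The labels name chromosome 5 in the strain B.D(Chr5) and do not say which other regions differ, and give no number of mice per replicate. The p-values therefore cover only the scatter among these arrays.

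Haem, the iron-containing ring that carries oxygen in haemoglobin and electrons in cytochromes, is built in a chain of enzyme steps that begins and ends in the mitochondrion. The first step, which joins glycine and succinyl-CoA, is made by ALAS and limits the rate of the chain. It has a pair of genes: Alas1 serves nearly all cells and is held down by haem, while Alas2 serves red cell precursors and its translation follows the iron supply. Erythroid precursors in the marrow make most of the body's haem, and myeloid precursors need it for myeloperoxidase and the NADPH oxidase.

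The signal is a MAS5 probe set intensity on a linear scale. Of 27 bacterial controls, which should find no mouse RNA, the 95th percentile was 21.8 to 38.0 over the arrays, and each array's own value served as its background level. Median signals were 65.1 to 79.5 over the arrays. No pair of arrays was identical (0 pairs). The progenitor receptor gene Kit read from 4060.0 to 5552 in B.D(Chr5) and from 4184 to 5338 in C57B/L6. Of 12 measured lymphoid markers, which do not separate mature cells from precursors, 11 lay above background on all 6 arrays. Among all probe sets that are not controls, 63.3% to 71.2% lay above background on a single array. The T cell gene Cd3d read from 258 to 349 in B.D(Chr5) and from 418 to 664 in C57B/L6. Summed over the 5 measured markers of granulocyte-monocyte progenitors, the signal ran from 57471 to 81965 in B.D(Chr5) and from 46262 to 54425 in C57B/L6. Summed over 16 erythroid markers it ran from 63351 to 82489 in B.D(Chr5) and from 65290 to 80404 in C57B/L6. In such bulk samples, fewer cells of a type and less RNA per cell cannot be told apart.

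Promoter sequence is shown for the first-step pair, because their regulation differs, and for Cpox and Ppox, a later gene with letters of an erythroid motif and the gene with the most negative log2 change. RefSeq windows of the build GRCm38.p6 were found for 7 of the 9 genes, in 10 windows, and the 250 bases before each annotated start were searched on both strands. Capitals mark matches to the GATA factor motif, searched as AGATAA or as the spelling AGATAG or as the spelling TGATAA or as the spelling TGATAG, which can overlap each other. They also mark the GC box, GGGCGG, the CCAAT box, which is CCAAT, and the core of the NRF1 motif, searched as GCGCATG, whose matches on the 2 strands can overlap. These are letter matches in a reference genome and not measured sites. The Alas1 stretch is chr9:106247906-106247935 on the minus strand, between its 2 annotated starts. Alas2 is chrX:150547167-150547416 on the plus strand, Cpox chr16:58669958-58670207 on the plus strand and Ppox chr1:171281187-171281436 on the minus strand.
Alas1: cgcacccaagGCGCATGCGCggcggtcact
Alas2: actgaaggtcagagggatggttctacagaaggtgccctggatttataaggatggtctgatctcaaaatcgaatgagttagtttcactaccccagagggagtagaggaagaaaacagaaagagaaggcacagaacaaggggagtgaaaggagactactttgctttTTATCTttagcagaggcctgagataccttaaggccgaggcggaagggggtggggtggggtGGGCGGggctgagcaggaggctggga
Cpox: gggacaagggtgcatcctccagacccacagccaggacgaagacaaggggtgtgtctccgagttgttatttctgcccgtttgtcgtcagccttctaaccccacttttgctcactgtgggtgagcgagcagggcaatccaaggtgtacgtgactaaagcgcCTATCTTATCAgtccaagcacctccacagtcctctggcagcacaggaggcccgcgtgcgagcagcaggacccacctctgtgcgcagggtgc
Ppox: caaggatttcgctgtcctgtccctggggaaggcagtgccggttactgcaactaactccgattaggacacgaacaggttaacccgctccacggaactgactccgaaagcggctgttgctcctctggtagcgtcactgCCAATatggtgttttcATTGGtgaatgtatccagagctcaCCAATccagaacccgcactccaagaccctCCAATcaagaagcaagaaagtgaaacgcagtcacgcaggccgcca
The NRF1 core occurred in 1 of the 10 windows, that of Alas1, against 3.24% of 32851 mouse windows. A GATA spelling stood in 3 of the 10, of Alas2, Cpox and Uros, against 26.5% of all windows. In Alas2 it began 86 bases before the start, and in Cpox a pair of overlapping matches began 91 and 86 bases before it. Ppox had 4 CCAAT boxes and no match to the other motifs, and 33.8% of all windows held a CCAAT box. A GC box stood in 6 of the 10 windows, against 32.7% of all windows.

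Whether the enzymes of the pathway differ between the strains was asked first. After the upper 50% of probe sets by mean signal had been kept, 15 of the 20 haem probe sets remained, from 8 of the 9 genes, and Hmox1 was too dim. Of these 15, 0 passed limma at an adjusted p of 0.05, and 3 had an unadjusted p under 0.05. Over all 22518 tested probe sets 0.182% passed the adjusted threshold (0.0977% higher and 0.0844% lower in B.D(Chr5)) and 4.75% the unadjusted one. The 3 were both probe sets of Alas1, with positive log2 changes, and the brightest of Ppox, with a negative one. The arrays of the strains did not overlap for 2 of the 15, Alas1 higher and Ppox lower in B.D(Chr5), and over all tested probe sets the share was 9.4%, with 4.16% higher and 5.24% lower. Taking the brightest probe set of each gene, the log2 change was positive for 2 genes and negative for 6, with a median of -0.077, against a median of 0.00025 over all tested probe sets. With all 20 probe sets averaged within their genes, dim ones included, the median over the 9 genes was -0.15.

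**Figure D1:**
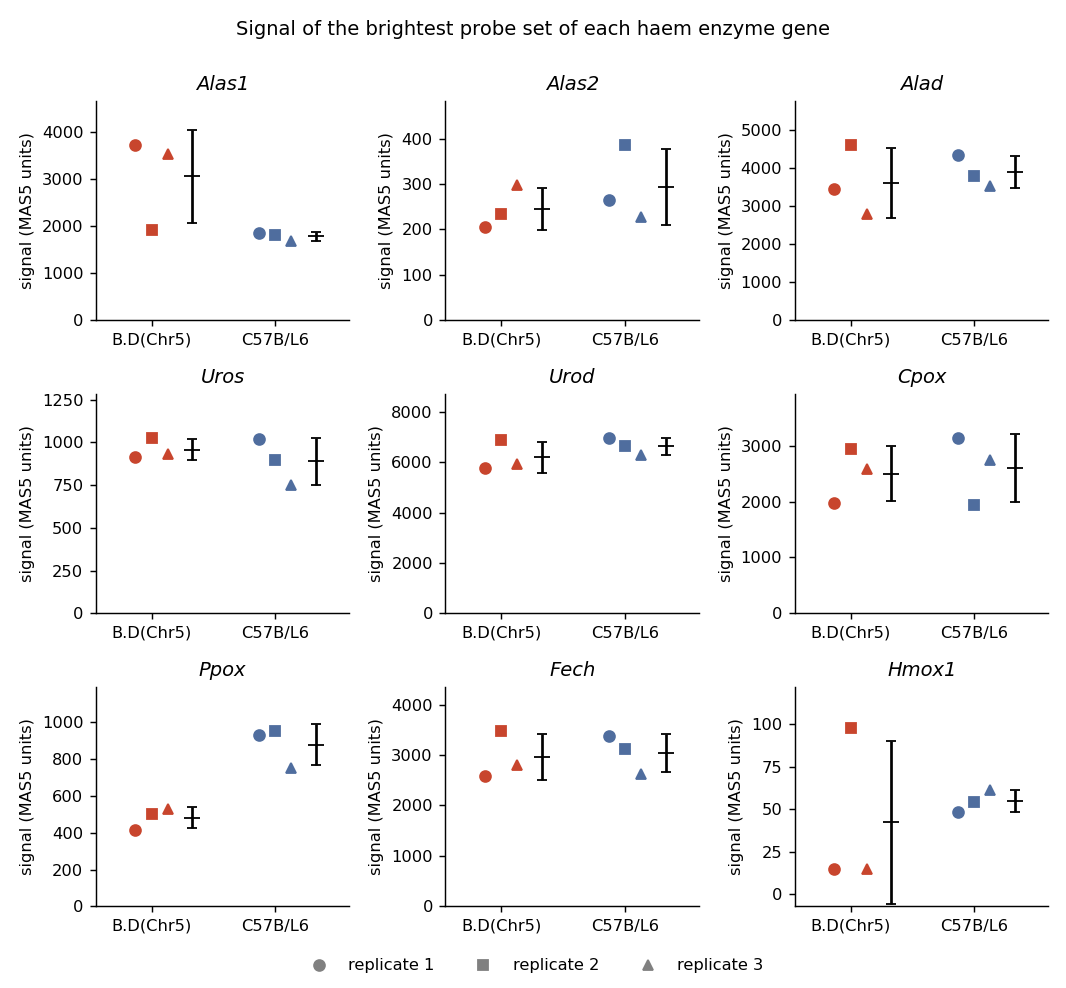
Signal (vertical axis, MAS5 units, linear) of the brightest probe set of each of the 9 genes on the 3 B.D(Chr5) arrays (red) and the 3 C57B/L6 arrays (blue), with the mean and SD in black and the replicate number as the marker shape. The bar of Hmox1 in B.D(Chr5) runs below 0 because its SD exceeds its mean. Ppox lies lower on all 3 B.D(Chr5) arrays, Alas1 is high on B.D(Chr5) replicates 1 and 3, and Hmox1 on B.D(Chr5) replicate 2.

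Alas1, the first-step gene of most cells, had the largest positive change of the 15. Its brighter probe set, 1424126_at, read 3733, 1926.5 and 3527 on B.D(Chr5) replicates 1, 2 and 3, against 1865, 1808 and 1683 on the C57B/L6 arrays. B.D(Chr5) replicates 1 and 3 stood far above all C57B/L6 arrays, while replicate 2 lay just above the highest of them. The mean was 3062 ± 989 in B.D(Chr5) and 1785 ± 93.2 in C57B/L6 (SD, n = 3 each), a log2 change of 0.72 (SE 0.21, unadjusted 95% interval from 0.24 to 1.19, limma adjusted p = 0.699). Without B.D(Chr5) replicate 2, the array of its strain nearest to C57B/L6, the log2 change was 1.02 and passed (limma adjusted p = 0.00257). With any other array left out it ran from 0.54 to 0.75 and did not pass (limma adjusted p of 0.819 or more).

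The dimmer Alas1 probe set, 1455282_x_at, gave 617, 371 and 820.4 in B.D(Chr5) and 413, 377 and 357 in C57B/L6. Replicates 1 and 3 of B.D(Chr5) were again high, and replicate 2 lay inside the C57B/L6 range. Its log2 change was 0.57 (SE 0.24, limma adjusted p = 1.00). With 1 array left out it ran from 0.31 to 0.87 and never passed. The suffix of this probe set marks probes that may also bind other transcripts.

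Markers of granulocyte-monocyte progenitors moved with Alas1 from array to array. Their summed signal over 5 of the 6 listed genes was 81965, 57471 and 78077 on B.D(Chr5) replicates 1, 2 and 3, against 54425, 51789 and 46262 on the C57B/L6 arrays. All 5 were higher on average in B.D(Chr5), the median log2 change being 0.56. Of them, 0 passed limma and all 5 had an unadjusted p under 0.05, against 4.75% of all tested probe sets. The 5 were read on the same 6 arrays, so these p-values are not independent. The 2 of smallest p were the granule protease genes Ctsg at 0.56 (SE 0.13, limma adjusted p = 0.379) and Prtn3 at 0.45 (SE 0.11, limma adjusted p = 0.412). Elane, the neutrophil elastase gene, read 17245, 8822 and 16511 in B.D(Chr5), against 8802, 7395 and 6143 in C57B/L6. B.D(Chr5) replicate 2 was thus the lowest of its strain for Alas1 and for this gene. Ms4a3, another gene of these progenitors, had a log2 change of 1.12 (SE 0.29, limma adjusted p = 0.499). The part of these cells in the Alas1 values was not tested.

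Among all other tested genes, 5 had a profile over the 6 arrays nearest to that of Alas1, by the root mean square difference of log2 values centred on their mean. These were Anxa3 at 0.072, App at 0.11, Bmx at 0.12, Trem3 at 0.13 and Gfi1 at 0.13, where the spread of Alas1 itself was 0.47. Anxa3 encodes an annexin of neutrophil granules, Trem3 a myeloid surface receptor and Gfi1 a repressor needed for neutrophil development. Gfi1 read 656, 295 and 653 in B.D(Chr5) and 325, 376 and 312 in C57B/L6. The likeness is a description over 6 arrays.

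Alas2, the erythroid first-step gene, had a negative change that did not pass. Its only probe set read 205, 234 and 297 in B.D(Chr5), against 265, 387 and 227 in C57B/L6. The groups overlapped, and the highest value was that of C57B/L6 replicate 2. The mean was 245 ± 46.8 in B.D(Chr5) and 293 ± 83.6 in C57B/L6 (SD, n = 3 each), a log2 change of -0.22 (SE 0.21, 95% interval from -0.70 to 0.26, limma adjusted p = 1.00). The interval takes in both a fall and a rise.

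Alas2 was highest on replicate 3 of B.D(Chr5) and on replicate 2 of C57B/L6. Of 15 tested erythroid markers, 2 had that pattern, Epb42 and Slc4a1, which encode red cell membrane proteins. Another 11, Ermap and Rhag among them, were highest on replicate 2 of B.D(Chr5) and replicate 1 of C57B/L6. By the same measure of likeness the nearest genes to Alas2 were Arhgef3 at 0.076, Slc5a2 at 0.085, Mrvi1 at 0.092, Esrp2 at 0.093 and Vegfc at 0.11, against a spread of 0.28 for Alas2. The brightest probe set of Arhgef3 read 287, 315 and 378 in B.D(Chr5) and 384, 504 and 339 in C57B/L6.

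The direct comparison of the 2 first-step genes used the log2 signal of Alas2 minus that of Alas1 on each array. It was -4.08, -2.96 and -3.50 in B.D(Chr5), against -2.74, -2.18 and -2.81 in C57B/L6. All B.D(Chr5) arrays lay below all C57B/L6 arrays. The values are not levels that can be set against each other between probe sets, but their change of -0.94 compares the strains (exact permutation p = 0.1, two-sided, the smallest that 3 arrays against 3 allow, adjusted 0.267 over the 8 members compared with Alas1). B.D(Chr5) replicate 2 was again the array nearest to C57B/L6. Most of the -0.94 came from Alas1, whose own log2 change was 0.72 without overlap. That of Alas2 was -0.22 (SE 0.21), with overlap. A gene with no strain change would thus also give a negative difference from Alas1. How many other genes fail to overlap when set against Alas1 was not counted.

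The same difference was taken for the other members. The strain difference was -1.56 for Ppox minus Alas1 and -0.82 for Urod minus Alas1, both without overlap (exact permutation p = 0.1 each, adjusted 0.267). For Urod the gap was narrow, with B.D(Chr5) replicate 2 at 1.83 and the lowest C57B/L6 array at 1.87. Urod itself had a log2 change of -0.10, with overlap. The change was -0.84 for Alad, -0.60 for Uros, -0.77 for Cpox and -0.76 for Fech, with overlap in all 4 and exact permutation p values from 0.2 to 0.4. B.D(Chr5) replicate 2 fell within the C57B/L6 range for Uros and Cpox and just above it for Alad and Fech. All 8 differences share the Alas1 values, so they are not independent, and none could reach 0.05 in this design.

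**Figure D2:**
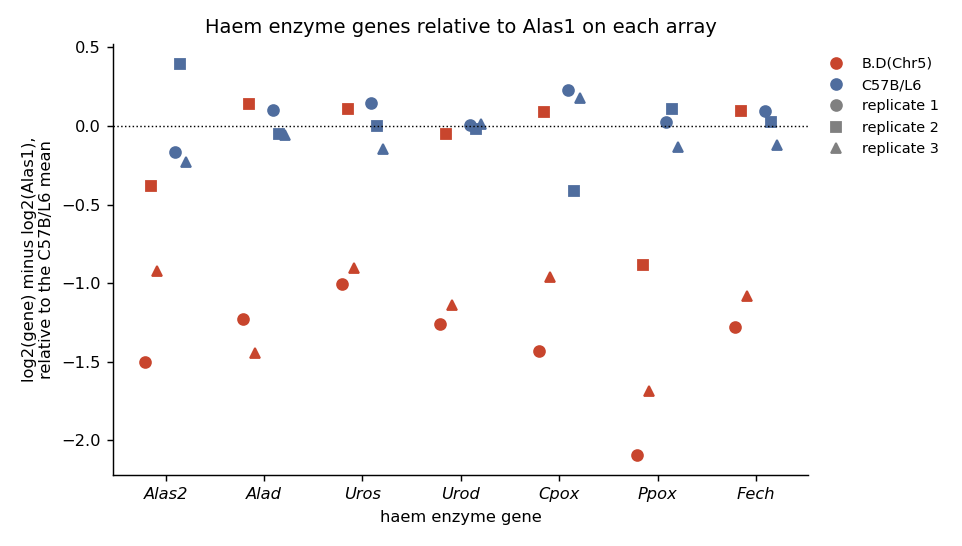
For each gene, log2(signal + 16) minus that of Alas1 on the same array, drawn relative to the C57B/L6 mean (dotted line at 0), for B.D(Chr5) (red) and C57B/L6 (blue) arrays, with the replicate as marker shape. B.D(Chr5) replicates 1 and 3 lie below the C57B/L6 arrays for all 7 genes drawn. Replicate 2 lies below them for Alas2 and Ppox and, narrowly, for Urod. Hmox1, at background on 2 arrays, is not drawn.

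The next enzymes work in the cytosol. Alad joins pairs of aminolevulinate molecules into porphobilinogen. Its brighter probe set read 3438, 4614 and 2799.6 in B.D(Chr5) and 4347, 3795 and 3519.7 in C57B/L6, so that the B.D(Chr5) arrays held both the highest and the lowest value. The log2 change was -0.13 (SE 0.16, 95% interval from -0.49 to 0.23). The dimmer probe set read 140.4, 196 and 115 in B.D(Chr5) and 184, 178 and 174 in C57B/L6, with the same array highest and the same lowest. The enzyme that makes the linear tetrapyrrole from porphobilinogen was not analysed here.

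Uros closes the tetrapyrrole ring. It read 914, 1028 and 930.3 in B.D(Chr5) and 1021, 895 and 749.6 in C57B/L6, a log2 change of 0.11 (SE 0.13). Urod, which trims the side chains of that ring, was the brightest member on probe set 1443849_x_at, at 5760.0, 6905 and 5939 in B.D(Chr5) and 6977, 6644 and 6309 in C57B/L6. Its log2 change was -0.10 (SE 0.086), and the interval from -0.30 to 0.090 was the narrowest among the 15. The other Urod probe set differed by -0.065. Both genes overlapped between the strains.

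Cpox brings the pathway back to the mitochondrion. Probe set 1422493_at read 1975, 2947 and 2584 in B.D(Chr5) and 3144, 1947 and 2739 in C57B/L6, a log2 change of -0.052 (SE 0.19). Probe set 1422492_at read 1479, 2330.1 and 1900.5 in B.D(Chr5) and 2336, 2494 and 2137 in C57B/L6, a log2 change of -0.31 (SE 0.15, limma adjusted p = 1.00). The probe sets disagreed on C57B/L6 replicate 2, the lowest C57B/L6 array on the first and the highest on the second. They agreed that B.D(Chr5) replicate 1 was low and replicate 2 the highest of its strain.

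Ppox, which oxidises protoporphyrinogen in the last step but one, had the largest change of the 15 in size. Its signal on probe set 1416618_at was 418, 504 and 528 in B.D(Chr5), against 930.4, 955 and 750.3 in C57B/L6. Every B.D(Chr5) array lay below every C57B/L6 array, and the log2 change ran from -0.95 to -0.74 with each array left out. The mean was 483 ± 58.1 in B.D(Chr5) and 879 ± 112 in C57B/L6 (SD, n = 3 each), a log2 change of -0.84 (SE 0.14, 95% interval from -1.15 to -0.53). It ranked 44 by p among the 22518 tested probe sets and missed the threshold (unadjusted p = 0.000136, limma adjusted p = 0.0696). With each array centred on its median it passed, at a log2 change of -0.85 (limma adjusted p = 0.00985). That setting also raised the count of all called probe sets from 41 to 67. In the other 12 of 13 alternatives Ppox did not pass (limma adjusted p from 0.0699 to 0.423).

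The other probe sets of Ppox were dim. Probe set 1448065_at read 47.5, 43.0 and 85.9 in B.D(Chr5) and 77.5, 80.9 and 79.2 in C57B/L6, a log2 change of -0.39 (SE 0.27). There, B.D(Chr5) replicate 3 was the highest of the 6 arrays. Probe set 1441862_at, at 5.31, 17.4 and 27.3 in B.D(Chr5), was at or below the background level on all 3 of those arrays and was not tested. Whether strain variants under the probes of 1416618_at alter its signal was not tested.

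Ppox lies on chromosome 1, not on the chromosome the strain is named for. In the gene order of the RefSeq annotation it is 13 tested genes from Slamf1 and 14 from Cd84, which were called with log2 changes of 1.15 and -1.07. Further along the same side, Mndal and Ifi202b, 33 and 35 tested genes away, were called at -6.63 and 7.83. Pex19 and Ifi209, 19 and 31 away, were called on a probe set other than their brightest. The nearest tested neighbours of Ppox, B4galt3 and Usp21, had log2 changes of -0.22 and -0.20 and did not pass. Tomm40l, 3 tested genes away, had -0.73 (SE 0.17, limma adjusted p = 0.349). The other members lie on chromosomes 4, 7, 8, 9, 16, 18 and X, and none lies on chromosome 5.

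Fech, the ferrochelatase gene, inserts iron into protoporphyrin to complete haem. Its brightest probe set read 2593, 3483 and 2806 in B.D(Chr5), against 3370.0, 3118 and 2626 in C57B/L6. The mean was 2961 ± 464 in B.D(Chr5) and 3038 ± 378 in C57B/L6 (SD, n = 3 each), a log2 change of -0.041 (SE 0.13, 95% interval from -0.33 to 0.25). Its other 2 tested probe sets had log2 changes of -0.077 and -0.089. All 3 gave their highest values on B.D(Chr5) replicate 2 and C57B/L6 replicate 1 within their strains.

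**Figure D3:**
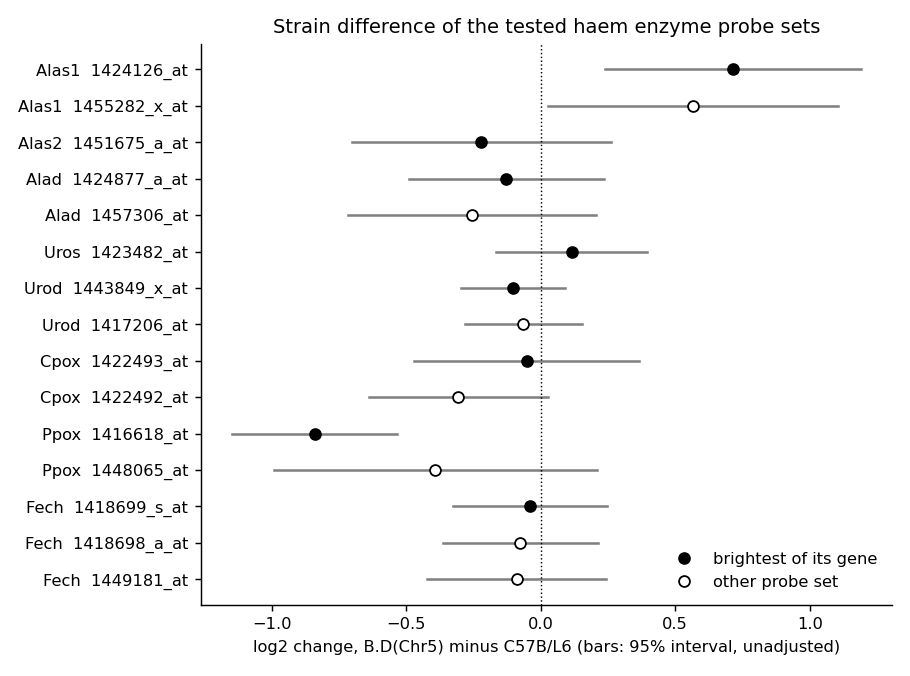
Log2 change, B.D(Chr5) minus C57B/L6 (horizontal axis), of the 15 tested haem probe sets, with unadjusted 95% intervals from limma as bars. Filled points are the brightest probe set of a gene. The intervals of both Alas1 probe sets and of Ppox 1416618_at leave out 0, and the other 12 include it.

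The erythroid sum and 11 of 15 tested erythroid markers had the same high arrays as Fech and Alad. Hba-a2, Hbb-b2, Slc4a1 and Epb42 did not share both arrays. The sum was 63425, 82489 and 63351 in B.D(Chr5), against 80404, 67869 and 65290 in C57B/L6. Most of it was Car1 and Car2, at 18505 and 20380 on B.D(Chr5) replicate 1. B.D(Chr5) replicate 2 and C57B/L6 replicate 1 were the highest of their strains for the erythroid sum, for Fech and for Alad. The same held for the tested probe set of Uros and the brightest probe set of Urod and of Cpox. The dimmer Urod probe set was highest on replicate 1 of both strains. Klf1, the erythroid transcription factor gene, read 6917, 9239 and 6539 in B.D(Chr5) and 8920, 7532 and 6932 in C57B/L6. Of 15 tested erythroid genes, 0 passed limma and 0 had an unadjusted p under 0.05, 4 had positive and 11 negative log2 changes, and the median was -0.083. The 2 of smallest p were the globin gene Hba-a2 at 0.48 (SE 0.24) and the adhesion gene Icam4 at -0.24 (SE 0.14). The Hba-a2 probe set was dim, at 118, 96.9 and 109 in B.D(Chr5) and 51.2, 92.8 and 79.8 in C57B/L6. The part of erythroid cells in the values of the haem genes was not tested.

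Hmox1 encodes the inducible haem oxygenase, which opens the haem ring and releases iron, carbon monoxide and biliverdin. Its 1 probe set read 14.9, 97.7 and 14.8 in B.D(Chr5), against 48.7, 54.2 and 61.7 in C57B/L6. B.D(Chr5) replicates 1 and 3 were at or below the background level, and replicate 2 was the highest of all 6. With no filter on dim probe sets the log2 change was -0.57 (SE 0.49, limma adjusted p = 1.00). That value rests on 1 B.D(Chr5) array above background, and the strains overlapped. The other 4 probe sets below the filter on low signal were 1 each of Uros, Cpox, Ppox and Fech. That of Uros read 44.7, 29.3 and 77.5 in B.D(Chr5), against 74.7, 83.5 and 50.3 in C57B/L6. That of Fech was at or below the background level on 3 of 3 B.D(Chr5) arrays and on 2 of 3 C57B/L6 arrays.

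**Figure D4:**
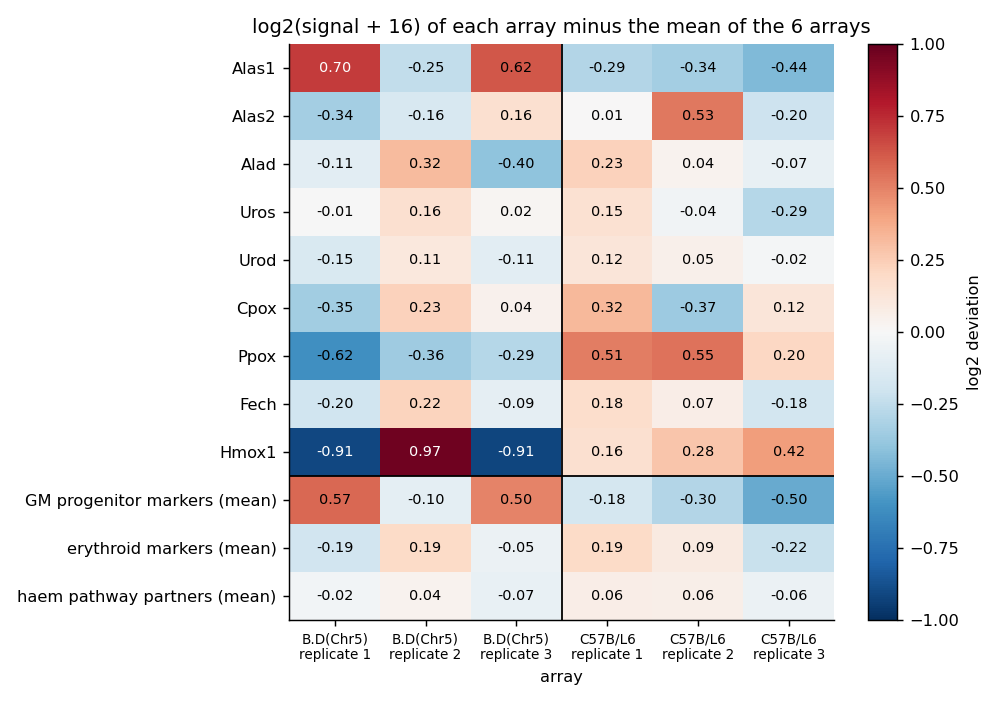
Log2(signal + 16) on each array minus the mean over the 6 arrays, for the brightest probe set of each haem gene and for the mean of 3 marker lists, with red above and blue below the mean and the value written in each cell. B.D(Chr5) replicates 1 and 3 share high values of Alas1 and of granulocyte-monocyte (GM) progenitor markers, and B.D(Chr5) replicate 2 stands apart for Hmox1 at 0.97, a gene at or below background on B.D(Chr5) replicates 1 and 3.

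Macrophages, which recycle haem from old red cells, are a known place of Hmox1 expression. Of 14 macrophage markers, 6 were bright enough to test and 0 passed limma (0 at an unadjusted p of 0.05), with a median log2 change of 0.23. Their summed signal was 10429.5, 7556 and 10785.5 in B.D(Chr5), against 7345, 9364 and 9452 in C57B/L6, and most of it was Csf1r, which progenitors also express. The 2 of smallest p were Adgre1, which encodes the surface protein F4/80, at 0.46 (SE 0.24) and the adhesion gene Vcam1 at 0.30 (SE 0.18). Of the 14, 7 lay above background on all 6 arrays and 3, C1qa, Marco and Timd4, on none. The array highest for Hmox1 was the lowest of B.D(Chr5) for this sum.

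Genes that work beside the enzymes gave no calls. Of 24 listed partners, among them genes that carry precursors, move haem, act on ALAS or act after haem oxygenase, 19 were tested. Of these, 0 passed limma and 1 had an unadjusted p under 0.05, against 4.75% of all tested probe sets. Log2 changes were positive for 8 and negative for 11, and the median was -0.030. Clpx, whose protein activates and, with Clpp, removes ALAS in mitochondria, read 939.97, 752 and 879.8 in B.D(Chr5) and 990.3, 1183 and 1150.3 in C57B/L6. All B.D(Chr5) arrays lay below the C57B/L6 arrays, with a log2 change of -0.37 (SE 0.12, limma adjusted p = 0.834). Of all tested probe sets, 9.4% had no overlap in either direction. Pgrmc1, a haem-binding partner of Fech, had -0.21 (SE 0.096).

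Iron uptake and storage genes gave 0 calls of 13 tested by limma, with a median of 0.013. At an unadjusted limma p of 0.05 there was 1, against 4.75% of all tested probe sets. Tfrc, the transferrin receptor that brings in iron, read 7356, 8091 and 7557 in B.D(Chr5), against 7171, 6642 and 6620.3 in C57B/L6. All B.D(Chr5) arrays lay above all C57B/L6 arrays, and 9.4% of all tested probe sets had no overlap in either direction. The log2 change was 0.17 (SE 0.071), a small change that did not pass (limma adjusted p = 1.00). Tfr2, its erythroid relative, had -0.19 (SE 0.097).

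Regulators of the haem genes also gave 0 calls of 17 tested by limma (0 at an unadjusted p of 0.05), with a median of -0.011. The 2 of smallest p were Nfe2, a globin locus activator, at -0.0996 (SE 0.074), and Mafg, a small Maf partner, at 0.16 (SE 0.12). Bach1, the haem-sensing repressor of Hmox1, read 2364, 2223 and 2317 in B.D(Chr5) and 2134, 2179 and 2450.3 in C57B/L6, with overlap.

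Of 7 tested oxidant response genes, 0 passed limma and the median was -0.041. At an unadjusted limma p of 0.05 there were 2, against 4.75% of all tested probe sets. Gclm, the regulatory subunit of the enzyme that begins glutathione synthesis and, like Hmox1, a target of NRF2, read 2383, 2957 and 2288 in B.D(Chr5), against 4196, 3701 and 3812 in C57B/L6. The groups did not overlap, as for 9.4% of all tested probe sets in either direction. The log2 change was -0.62 (SE 0.11, unadjusted p = 0.000208, limma adjusted p = 0.102). Nfe2l2, which encodes NRF2, had a log2 change of 0.0031. Gsr, glutathione reductase, was 0.40 (SE 0.16), and its B.D(Chr5) arrays read 2368, 1711 and 2917 against 1777, 1684 and 1712 in C57B/L6.

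Markers of other cells the preparation could hold were counted in the same way. Over all tested probe sets, 0.182% passed limma and 4.75% had an unadjusted p under 0.05. All 10 tested monocyte and neutrophil genes had log2 changes above 0 (median 0.36), Camp being at 0.65 and Ngp at 0.45, with 0 limma calls and 6 at an unadjusted p of 0.05. Replicate 3 of B.D(Chr5) was much the highest array for them. Their mean log2 deviation from the 6-array mean was 0.070, -0.052 and 0.56 on B.D(Chr5) replicates 1, 2 and 3. On the C57B/L6 arrays it was -0.28, -0.10 and -0.20. Of 8 stem and progenitor genes, 7 were negative, the median was -0.21, and the 1 call was Slamf1, which was higher. Slamf1 is the chromosome 1 gene named above, 13 tested genes from Ppox and next to Cd84. All 6 megakaryocyte genes were negative, with a median of -0.12, and 0 passed limma (0 at an unadjusted p of 0.05), Gp9 being at -0.39 and Pf4 at -0.14. Of 10 lymphoid genes, 6 were positive with a median of 0.22, 0 limma calls and 5 at an unadjusted p of 0.05, the 2 of smallest p being Cd3d at -0.80 and Igll1 at 0.83. Of the 6 background check genes, such as the liver gene Alb, 0 were bright enough to test.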

How the data were processed

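RNA of 6 samples was measured on 6 one-colour Affymetrix arrays. The authors deposited a linear intensity for each probe set, computed by MAS5 per the submitters' processing notes, with no version or settings stated there. Leaving out the outer 2% at either end, the mean was 500 on every array, so the arrays had been scaled alike. Of 45101 probe sets, 64 controls were not used. GEO's platform annotation gave 34945 of the rest 1 symbol, 932 several and 9160 none; symbols were updated through Entrez identifiers to RefSeq of GRCm38.p6.

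Values became log2(signal + 16), so changes of dim probe sets are understated. The upper 50% by mean, 22518 probe sets, entered limma 3.58.1 (R 4.3.3; lmFit, eBayes with trend, strain the only term, two-sided), with Benjamini-Hochberg adjustment over all of them and a threshold of 0.05. The script was tested on simulated data. Single differences between members used a two-sided exact permutation test over arrays (SciPy 1.17.1). The number of arrays limits the precision. The brightest probe set stood for a gene in summaries.

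The members, the 12 gene lists and the tests were chosen with earlier results of these data known. Named were all members, from each list the called genes or else the 2 of smallest p, and the 5 genes nearest in profile to Alas1, Alas2 and Hmox1. Elane, Ms4a3, Slc4a1, Epb42, Ermap, Rhag, Klf1, Csf1r, C1qa, Marco, Timd4, Bach1, Nfe2l2, Kit, Alb and the neighbours of Ppox were added after their values were seen. So were Hbb-b2, Car1, Car2, Pex19, Ifi209, Mndal and Ifi202b. Alternatives were pseudocounts of 1 and 64, no filter on dim probe sets, quantile normalization, each array's median set equal, eBayes with its trend off, a block for replicate number, averaging the probe sets of a gene, and leaving out each array.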

Additional observations from a re-analysis of the deposited data

How the results depend on the processing

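The count of called probe sets, 41, moved to 67 with each array centred on its median, to 25 without the trend and to 27 with the replicate block, and ran from 21 to 73 with 1 array left out. It was 73 without B.D(Chr5) replicate 2, 21 without B.D(Chr5) replicate 1, 24 without C57B/L6 replicate 2 and 22 without C57B/L6 replicate 3. The count of haem probe sets called was 0 except with median centring, where it was 1 (Ppox), and without B.D(Chr5) replicate 2, where it was 1 (Alas1), so it ran from 0 to 1 over the arrays left out. The median log2 change of the haem genes ran from -0.18 to -0.0015 over the arrays left out. The change of Alas2 minus Alas1 kept its sign in all 12 alternatives, from -1.21 to -0.65 with an array left out and at -0.94 with the replicate block (exact permutation p = 0.25, the smallest that 3 pairs allow).

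Of 195 values of single haem probe sets under these alternatives, 9 changed sign and 2 gained the call, and 184 did neither. With 1 array left out, Cpox 1422493_at ran from -0.25 to 0.11, positive without B.D(Chr5) replicate 1 and at 0.095 without C57B/L6 replicate 1. Fech 1418699_s_at ran from -0.16 to 0.049 and Fech 1449181_at from -0.25 to 0.032, both positive without the same arrays, at 0.038 and 0.0035 without C57B/L6 replicate 1. Fech 1418698_a_at ran from -0.20 to 0.011, positive without C57B/L6 replicate 1. Alad 1424877_a_at ran from -0.32 to 0.040, positive without B.D(Chr5) replicate 3, and Uros 1423482_at from -0.00016 to 0.22, negative without C57B/L6 replicate 3. The cause of these changes was not tested beyond the arrays left out. The adjusted p of Ppox 1416618_at ran from 0.00985 to 0.423 over its alternatives. The labels do not say whether same-numbered replicates were paired. Correlations of same-numbered deviations from the strain means were -0.11, -0.20 and 0.20, and those of differently numbered arrays ran from -0.16 to 0.30. With 3 arrays per strain these values cannot settle the pairing. The block changed no call of a haem gene. Signals near the background level limit Hmox1.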

Other observations

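Ppargc1a, which encodes a coactivator known to induce Alas1 in liver, was below the filter on dim probe sets and was singled out after its values were seen. It read 21.6, 26.9 and 1.93 in B.D(Chr5), against 49.2, 36.2 and 43.5 in C57B/L6. The B.D(Chr5) arrays lay at or below their background levels of 23.4, 31.8 and 38.0, and the C57B/L6 arrays lay above theirs of 22.8, 21.8 and 24.4. No fold is given against values at background. A dim probe set of Cpox, 1440747_at, read 63.8, 84.7 and 102.7 in B.D(Chr5) and 69.0, 33.9 and 48.7 in C57B/L6, the opposite direction to its brighter probe sets, with a log2 change of 0.60 (SE 0.31) in the fit with no filter on dim probe sets. The profile nearest to that of Hmox1 among tested genes was Mturn, at a root mean square difference of 0.34, followed by Carns1 at 0.35, Dzip1 and Sirt4 at 0.37 each and Prss22 at 0.40, against a spread of 0.69 for Hmox1 over the 6 arrays. Hmox1 was at or below background on B.D(Chr5) replicates 1 and 3, so this order rests partly on values that were not measured above background.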
